A study of Mus musculus with 2 samples.

Results

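The Aldh1a1 bins are patches of a young mouse ovary section in which transcripts of Aldh1a1, Mgarp and Adh1 took the largest share of all counts. The section was divided into square bins of 70 position units, and 1306 bins with at least 500 counts were kept. The 140 kept bins with at least 2 counts of Cyp17a1, the gene of the androgen-forming enzyme of theca cells, were set aside. The other 1166 bins were ranked by the summed share of the 3 genes. The Aldh1a1 bins are the top 20%, 233 bins, and were thus chosen by measured counts of these genes and of Cyp17a1. They make up 233 of the 2190 kept bins of both sections. The 933 lower-ranked bins, called the other ranked bins below, are the comparison.

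The sections came from whole ovaries of C57BL6/J female mice and were profiled by Slide-seq, in which a frozen section is melted onto an array of barcoded beads of known position. The young group is 1 section from a mouse of 2 months and the old group 1 section from a mouse of about 14 months, with no genetic change or treatment named for either. Per the labels, each age cohort had 2 mice, and the planes to be captured were picked beforehand for holding several oocytes. With 1 section per age there is no replicate, so age, animal, plane and library cannot be told apart and no p-value is given. The young section gave 5158314 counts and the old one 2348768, and no bead barcode was found in both. A bin is a small region that can hold several cell types, and more cells of a type and more RNA per cell cannot be told apart.

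The interstitium of the mouse ovary lies between follicles and corpora lutea and holds steroid-making cells, fibroblasts, smooth muscle and vessels. Steroid-making cells bring cholesterol into mitochondria with Star, cut it to pregnenolone with Cyp11a1 and its electron carriers Fdx1 and Fdxr, and form progesterone with Hsd3b1. Theca cells go on to androgens with Cyp17a1, and granulosa cells to oestrogens with Cyp19a1. Aldh1a1 oxidises retinaldehyde to retinoic acid, Adh1 is an alcohol dehydrogenase that also takes retinol, and Mgarp is a mitochondrial protein of steroid-making tissues. The word interstitial rests here on these genes and on position, since no histology was analysed here.

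The 100 bases before the annotated start of the 3 ranking genes, and of Aldh1a7, are shown because Aldh1a7 is a close copy of Aldh1a1 whose reads could be mixed with it in counting. They were read from RefSeq (GRCm38.p6) and are written 5′ to 3′ on the strand of the gene, and capitals mark CCAAT or GGGCGG on either strand. Aldh1a1 has 2 listed starts, and the one shown lies at chr19:20601868-20601967 (plus strand), with Aldh1a7 at chr19:20727557-20727656 (minus), Mgarp at chr3:51396548-51396647 (minus) and Adh1 at chr3:138277485-138277584 (plus).
Aldh1a1: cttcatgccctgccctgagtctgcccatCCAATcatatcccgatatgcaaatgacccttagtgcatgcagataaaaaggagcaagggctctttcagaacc
Aldh1a7: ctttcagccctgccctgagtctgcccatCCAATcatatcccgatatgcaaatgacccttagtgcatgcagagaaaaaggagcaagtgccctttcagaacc
Mgarp: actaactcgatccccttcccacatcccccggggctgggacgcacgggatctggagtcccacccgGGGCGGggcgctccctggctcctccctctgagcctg
Adh1: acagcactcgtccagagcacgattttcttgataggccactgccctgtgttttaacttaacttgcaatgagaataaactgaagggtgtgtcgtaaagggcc
The Aldh1a1 and Aldh1a7 stretches were identical at 94 of 100 positions. Of the 2 Aldh1a1 starts the one that resembles Aldh1a7 was taken, so this likeness is in part a matter of that choice. The bases lie before the transcript and do not show whether reads were mixed. Both hold CCAAT, which is in 18.9% of all 32851 windows of this length, and Mgarp holds GGGCGG, which is in 24.7%. None of the 4 holds AAGGTCA, a motif bound by Nr5a1, which is in 1.49% of windows.

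The ranking genes themselves describe the choice and are not tested. Levels are given as CPM, the counts of a gene scaled to 1000000 counts of the bins they were summed over. Aldh1a1 stood at 19111 CPM in the Aldh1a1 bins and at 3411 CPM in the other ranked bins, Mgarp at 4757 and 1126 CPM, and Adh1 at 1071 and 107 CPM. The summed share per bin ran from 1.70% to 3.91% of counts with a median of 2.42%, against a median of 0.438% in the other ranked bins. The shares formed a slope with no gap at the boundary: the last 3 bins inside held 1.71%, 1.71% and 1.70%, and the first 3 outside 1.69%, 1.69% and 1.68%. Aldh1a1 was counted in 100% of the Aldh1a1 bins, Mgarp in 100% and Adh1 in 80.7%. A ranking by Aldh1a1 alone kept 218 of the 233 bins, and one by Mgarp and Adh1 without Aldh1a1 kept 181.

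**Figure D1:**
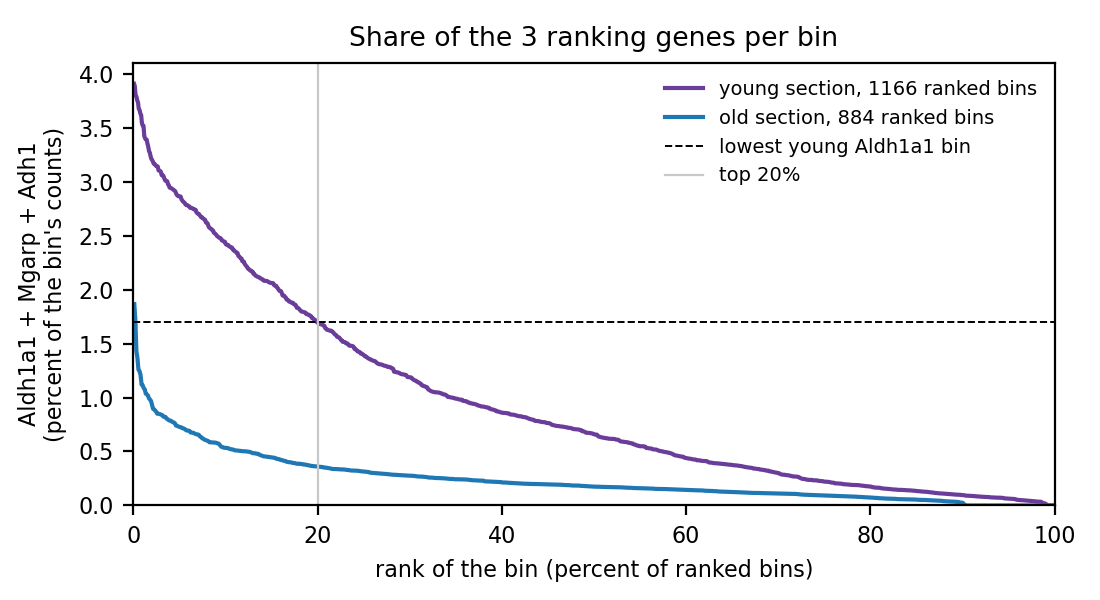
Each ranked bin of the young section (1166 bins) and of the old section (884 bins) in falling order of its share of Aldh1a1, Mgarp and Adh1, in percent of the bin's counts. The dashed line is the lowest young Aldh1a1 bin at 1.70%, which 2 bins of the old section reach.

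The bins set aside for Cyp17a1 resembled the Aldh1a1 bins in part. Their median share of the 3 genes was 1.31%, and Aldh1a1 stood at 10220 CPM there. Had no bin been set aside, 45 of these 140 bins would have been among the top 20%. Cyp17a1, which the rule capped, stood at 91.1 CPM in the Aldh1a1 bins, 39.9 CPM in the other ranked bins and 716 CPM in the bins set aside. The Aldh1a1 bins also held fewer counts than the others, at a median of 2594 counts, 1562 genes and 16 beads in a bin, against 3304 counts, 1967 genes and 15 beads. Mitochondrially encoded genes took 2.77% of their counts and 1.57% of the counts of the other ranked bins. The bins set aside held a median of 3929 counts. As 2 counts of Cyp17a1 are reached more easily in a deep bin, the line between them and the Aldh1a1 bins can depend in part on depth.

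On the section the Aldh1a1 bins lay together. Counted over touching pairs, 63.8% of the ranked neighbours of Aldh1a1 bins were Aldh1a1 bins, against 9.13% of the ranked neighbours of the other ranked bins. They formed 16 patches, of which 3 held at least 10 bins and 210 of the 233 bins between them. The largest held 188 bins and ran along the inside of the section, and 8 bins stood alone. The median distance to the outer edge of the tissue was 10.05 bin widths, against 4.47 for the other ranked bins. Of the Aldh1a1 bins 50.6% touched a bin set aside for Cyp17a1, against 38.6% of the others, and 6.87% touched an oocyte-rich bin, against 20.8%. No Aldh1a1 bin was among the 63 oocyte-rich bins, which have at least 10 counts and 1% of counts from 23 oocyte genes.

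**Figure D2:**
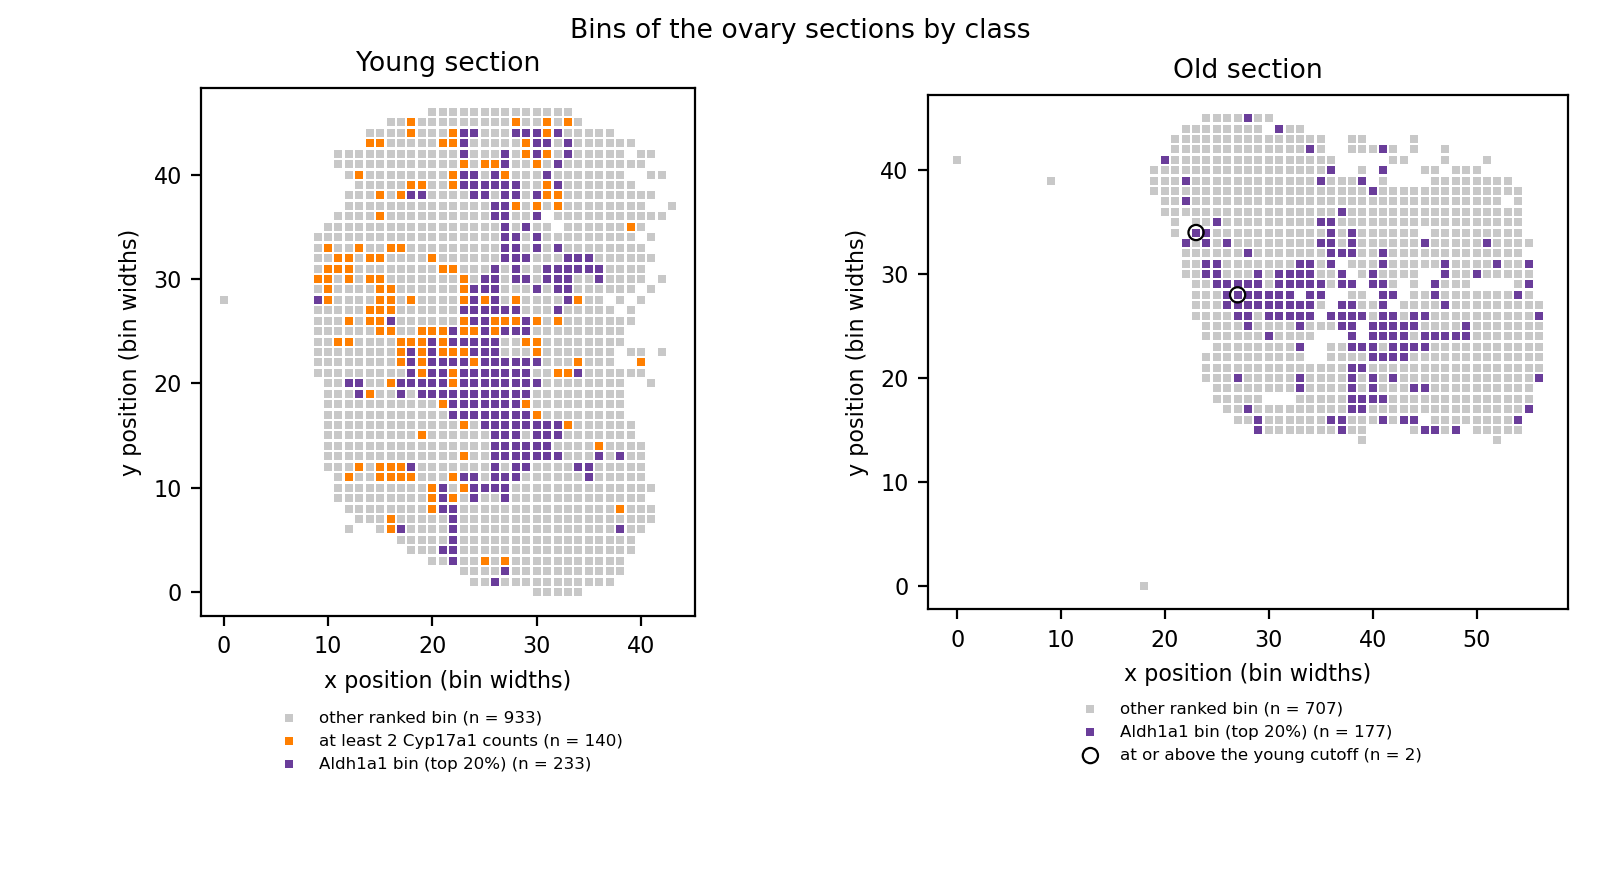
Kept bins of the young section (left) and old section (right) by class, with positions in bin widths. In the young section the 233 Aldh1a1 bins form a band through the inside of the tissue, and the 140 bins with at least 2 Cyp17a1 counts lie along it and on its low-x side. In the old section the top 20% by the same ranking are 177 bins, 2 of which reach the young cutoff (circles).

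Several steroid-making genes were higher in the Aldh1a1 bins, among them those of the first steps from cholesterol to progesterone, while the oestrogen-forming genes Cyp19a1 and Hsd17b1 were lower. Among 9864 genes with at least 50 counts over both classes, 971 (9.84%) were at least 1.5-fold higher in the Aldh1a1 bins than in the other ranked bins and 2555 (25.9%) at least 1.5-fold lower. Of the 971 higher genes 753 had a counting interval wholly above 1, and of the 2555 lower genes 1833 had one wholly below 1. Of the 13 steroidogenesis genes 8 were higher and 5 lower. Hsd3b1 stood at 23656 CPM in the Aldh1a1 bins and 8910 CPM in the others, a ratio of 2.65 (95% interval 2.60 to 2.71, here and below for counting error only). Cyp11a1 stood at 9476 and 2945 CPM (ratio 3.22, 3.12 to 3.32). Both were higher than in the bins set aside for Cyp17a1, at 16473 and 5777 CPM. Reads of Hsd3b1 could be shared with close copies such as Hsd3b6.

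The partners of Cyp11a1 followed it. Fdx1 stood at 2191 CPM against 674 CPM (ratio 3.25, 3.04 to 3.47) and Fdxr at 914 against 374 CPM (2.44, 2.22 to 2.69). Star was at 395 against 140 CPM (2.83, 2.43 to 3.29). Nr5a1, the nuclear receptor that drives steroidogenic genes, had a ratio of 2.48 (1.98 to 3.08). Por, the reductase that feeds electrons to microsomal P450 enzymes, had a ratio of 2.55 (1.68 to 3.82), and Srd5a1, the 5-alpha reductase, one of 3.96 (2.54 to 6.11). All 8 higher genes were above 1.5-fold also against ranked bins outside the luteal, granulosa and oocyte areas, at ratios of 1.71 (Por) to 2.89 (Srd5a1). With bins of 140 units Por gave 1.19, and the other 7 were above 1.5-fold under each alternative that was run.

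The 5 lower genes of the list were Cyp19a1, Hsd17b1, Cyb5a, Hsd17b7 and Nr4a1. Cyp19a1, the aromatase, had 1 count in the Aldh1a1 bins and 338 counts in the other ranked bins, and Hsd17b1, which forms oestradiol in granulosa cells, stood at 30.9 against 204 CPM (ratio 0.151, 0.0919 to 0.235). Cyb5a, which aids the lyase step of Cyp17a1, stood at 446 against 879 CPM (0.508, 0.449 to 0.573), and Hsd17b7, which acts in sterol and oestrogen synthesis, at 26.2 against 47.2 CPM. Against ranked bins outside the luteal, granulosa and oocyte areas the ratio of Hsd17b7 was 1.19. Nr4a1, an LH-induced nuclear receptor, had 0 counts against 36. Summed over the list without Cyp17a1, the level was 37430 CPM in the Aldh1a1 bins, 25853 CPM in the bins set aside, 19936 CPM in the luteal bins and 14202 CPM in the granulosa bins. The list took a median of 3.65% of counts per Aldh1a1 bin (quartiles 3.02% and 4.39%) and 1.55% per other ranked bin (0.868% and 2.25%). The ratio of 2.60 was 2.25 to 3.96 within the 4 quadrants of the section, and 2.37 where the bins were ranked on some of their beads and the list was measured on the others.

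**Figure D3:**
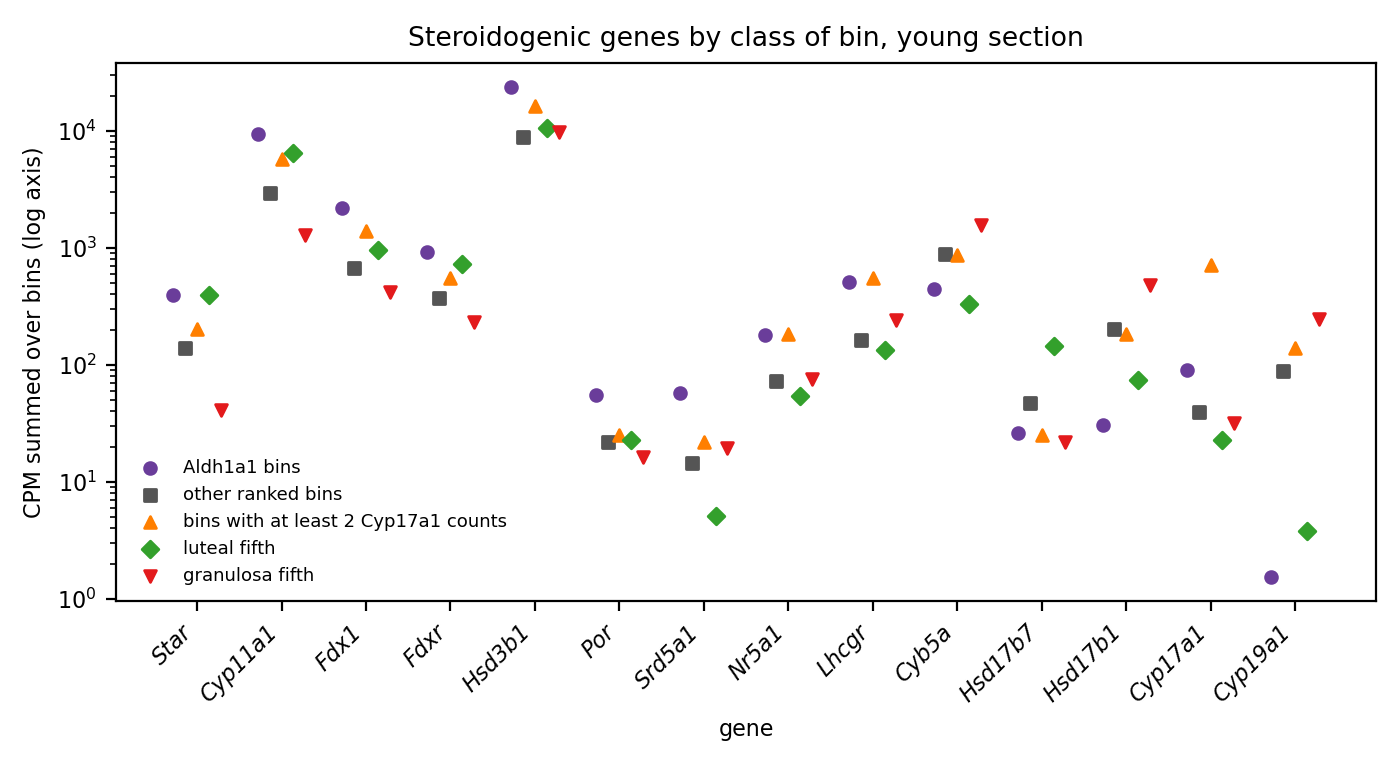
CPM of 14 steroidogenic genes, summed over the bins of 5 classes of the young section, on a log axis. The Aldh1a1 bins (circles) are the highest class for Cyp11a1, Fdx1, Fdxr, Hsd3b1, Por and Srd5a1, and the lowest for Cyp19a1 and Hsd17b1.

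Markers of theca and of the LH response gave a mixed picture. Insl3, the peptide hormone of theca cells, had 0 counts in the Aldh1a1 bins and 11 in the other ranked bins, too few to compare. Of the 5 theca genes with at least 20 counts apart from Cyp17a1, 2 were higher and 2 lower, with a summed ratio of 1.15 (0.990 to 1.34). Against ranked bins outside the luteal, granulosa and oocyte areas 0 of 5 were higher and 3 lower, and the ratio was 0.648 (0.547 to 0.765). Ogn, a matrix proteoglycan, stood at 182 against 112 CPM (ratio 1.63, 1.31 to 2.00), and Ptch1, the hedgehog receptor, at 38.6 against 59.0 CPM (0.654, 0.414 to 0.990). Neither was stable: Ogn gave 0.765 against ranked bins outside the luteal, granulosa and oocyte areas, and Ptch1 gave 1.11 with each bin thinned to 500 counts. Of 10 genes of the LH receptor and cAMP signalling 3 were higher and 1 lower. Lhcgr, the receptor for luteinising hormone, stood at 513 CPM against 165 CPM (3.12, 2.72 to 3.56) and at 555 CPM in the bins set aside. Prkar2b, a regulatory subunit of protein kinase A that granulosa cells carry, stood at 222 against 634 CPM (0.351, 0.294 to 0.415).

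The luteal list split by gene. Luteal bins are the 233 ranked bins highest in that list, of which 11 are Aldh1a1 bins, and granulosa bins are chosen likewise and share 1. Shared bins were left out of both sides wherever the Aldh1a1 bins are compared with these, and out of the luteal and granulosa levels, which left 222 luteal and 232 granulosa bins. Of its 8 measured genes 3 were higher in the Aldh1a1 bins: Lhcgr, the prolactin receptor Prlr (827 against 325 CPM, ratio 2.55, 2.30 to 2.82) and the lipoprotein receptor Scarb1 (350 against 221 CPM, 1.59, 1.37 to 1.84). With bins of 140 units the ratio of Scarb1 was 0.959. The other 5 were lower. Akr1c18, which inactivates progesterone, stood at 63.3 against 473 CPM (0.134, 0.0957 to 0.182), and the prostaglandin receptor Ptgfr at 95.7 against 639.5 CPM (0.150, 0.114 to 0.193). Sfrp4, a secreted Wnt antagonist, stood at 438 against 1571 CPM (0.279, 0.247 to 0.314). The summed ratio was 0.652, and it was 1.51 (1.40 to 1.63) against ranked bins outside the luteal, granulosa and oocyte areas. That comparison leaves out the bins highest in this same list but no Aldh1a1 bin, so its ratio depends on the choice of bins. With no bin left out, the list took a median of 0.207% of counts per Aldh1a1 bin and 0.149% per other ranked bin. Of the Aldh1a1 bins 65.7% lay above the latter median, although the summed level was lower.

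Retinoid genes beyond the ranking genes went both ways. Of 14 measured genes 6 passed 1.5-fold upward and 5 downward, at a median ratio of 1.09 against 0.895 over all measured genes. Aldh1a2, another retinaldehyde dehydrogenase, stood at 377 CPM against 123 CPM (ratio 3.05, 2.61 to 3.57). Aldh1a7 stood at 60.2 against 30.2 CPM (2.00, 1.35 to 2.89). Adh7, another retinol-oxidising dehydrogenase, had 20 counts against 12 (9.81, 4.57 to 22.0). Dhrs3, which turns retinaldehyde back to retinol, stood at 182 against 88.2 CPM (2.07, 1.66 to 2.56), and the retinoid X receptor Rxra at 37.1 against 15.7 CPM (2.35, 1.40 to 3.84). Cyp26b1, which degrades retinoic acid, had 10 counts against 26 (2.26, 0.974 to 4.85). Among the lower genes were the binding protein Crabp2 (3 counts against 101), the retinol uptake receptor Stra6 (5 against 133) and the retinol dehydrogenase Rdh10 (4 against 72).

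Some enzymes of detoxification and carbonyl reduction were higher. Of 24 glutathione and antioxidant genes 10 were higher and 0 lower, and 14 did not pass, with a summed ratio of 1.71 (1.65 to 1.76). Among all measured genes 9.84% were higher and 25.9% lower. Against ranked bins outside the luteal, granulosa and oocyte areas 6 of 23 were higher and 1 lower. The summed ratio there was 1.35 (1.29 to 1.40), and 7.86% of all measured genes were higher and 15.9% lower. The metallothionein Mt2 stood at 431 against 119 CPM (3.61, 3.10 to 4.20), Mt1 at 929 against 349 CPM (2.66, 2.41 to 2.93) and the glutathione transferase Gstm1 at 1166 against 374 CPM (3.11, 2.85 to 3.40). Of 12 aldo-keto and carbonyl reductase genes 5 were higher and 2 lower, and against ranked bins outside the luteal, granulosa and oocyte areas 3 of 12 were higher and 3 lower. Akr1cl stood at 5582 against 2308 CPM (2.42, 2.33 to 2.51) and the mitochondrial aldehyde dehydrogenase Aldh2 at 1714 against 884 CPM (1.94, 1.81 to 2.08). Akr1c18, named above, and Akr1c14 (0.372, 0.266 to 0.509) were lower.

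Sterol genes were mixed from gene to gene. In cholesterol synthesis 4 of 16 genes were higher and 4 lower, beside 9.84% and 25.9% of all measured genes. The summed ratio was 1.69 (1.57 to 1.82). Against ranked bins outside the luteal, granulosa and oocyte areas 5 of 14 were higher and 1 lower, beside 7.86% and 15.9% of all measured genes. The summed ratio there was 1.87 (1.69 to 2.08). Msmo1, which removes a methyl group from sterols, stood at 363 against 161 CPM (2.26, 1.94 to 2.63) and Lss, which closes the sterol rings, at 92.6 against 40.4 CPM (2.29, 1.67 to 3.11). Insig1, which restrains the pathway, stood at 23.2 against 40.7 CPM (0.569, 0.311 to 0.969). For uptake and storage 3 of 11 genes were higher and 2 lower. The higher ones were the exporter Abca1 (245 against 74.3 CPM, 3.31, 2.70 to 4.03), the esterifying enzyme Soat1 (707 against 418 CPM, 1.69, 1.52 to 1.88) and Scarb1. The lipid droplet coat protein Plin1 stood at 54.0 against 18.1 CPM (2.98, 1.93 to 4.54), with a ratio of 1.26 against ranked bins outside the luteal, granulosa and oocyte areas. The fatty acid transporter Cd36 stood at 78.7 against 258 CPM (0.305, 0.226 to 0.405).

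Mitochondrially encoded transcripts were higher as a group, with 6 of 7 measured genes above 1.5-fold and a summed ratio of 2.11 (2.06 to 2.15). mt-Nd2, a subunit of complex I, stood at 2888 against 1139.7 CPM (2.53, 2.40 to 2.68). Of 20 nuclear genes of the respiratory chain 3 were higher and 0 lower: Sdhb (1.78, 1.62 to 1.97) and Sdha (1.67, 1.42 to 1.96) of complex II and Ndufs1 (1.72, 1.45 to 2.03) of complex I. Among all measured genes 9.84% were higher and 25.9% lower. The summed ratio of the 20 genes was 1.18 (1.14 to 1.22). Against ranked bins outside the luteal, granulosa and oocyte areas it was 1.03 (0.993 to 1.08), with 3 of 20 higher and 0 lower. There 7.86% of all measured genes were higher and 15.9% lower. Mitochondrially encoded counts can also move with RNA quality, and their part in the other results was not tested. Leaving mitochondrial, ribosomal and haemoglobin transcripts out of the totals moved no list outside its counting interval.

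The 15 genes with the highest ratios, the ranking genes and Cyp17a1 aside, were low to moderate in level. Tbx3, a T-box transcription factor, stood at 153 CPM against 23.9 CPM (6.40, 4.77 to 8.60) and was above 5-fold within each quadrant (5.76 to 8.58). Mme, the membrane peptidase neprilysin, stood at 357 against 64.3 CPM (5.55, 4.61 to 6.67). Serpina5, a secreted serine protease inhibitor, stood at 207 against 34.4 CPM (6.02, 4.69 to 7.72), and the extracellular superoxide dismutase Sod3 at 88.0 against 17.3 CPM (5.08, 3.50 to 7.35). Snhg11 had the highest ratio, on 32 counts against 20 (9.41, 5.22 to 17.4). Bpifb5 (6.18), Epb41l3 (6.54), Fam169a (6.11), Cdhr5 (6.07), Smpx (5.73), Tmem150c (5.55) and Ldb2 (5.04) followed on 27 to 82 counts each in the Aldh1a1 bins. Mmrn1 (6.65) and Prox1 (5.29) belong to the lymphatic list and Hba-a1 (5.85) to red blood cells. Fam169a was at 0.445 in 1 quadrant, and the other 14 were above 1.5-fold in all 4.

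**Figure D4:**
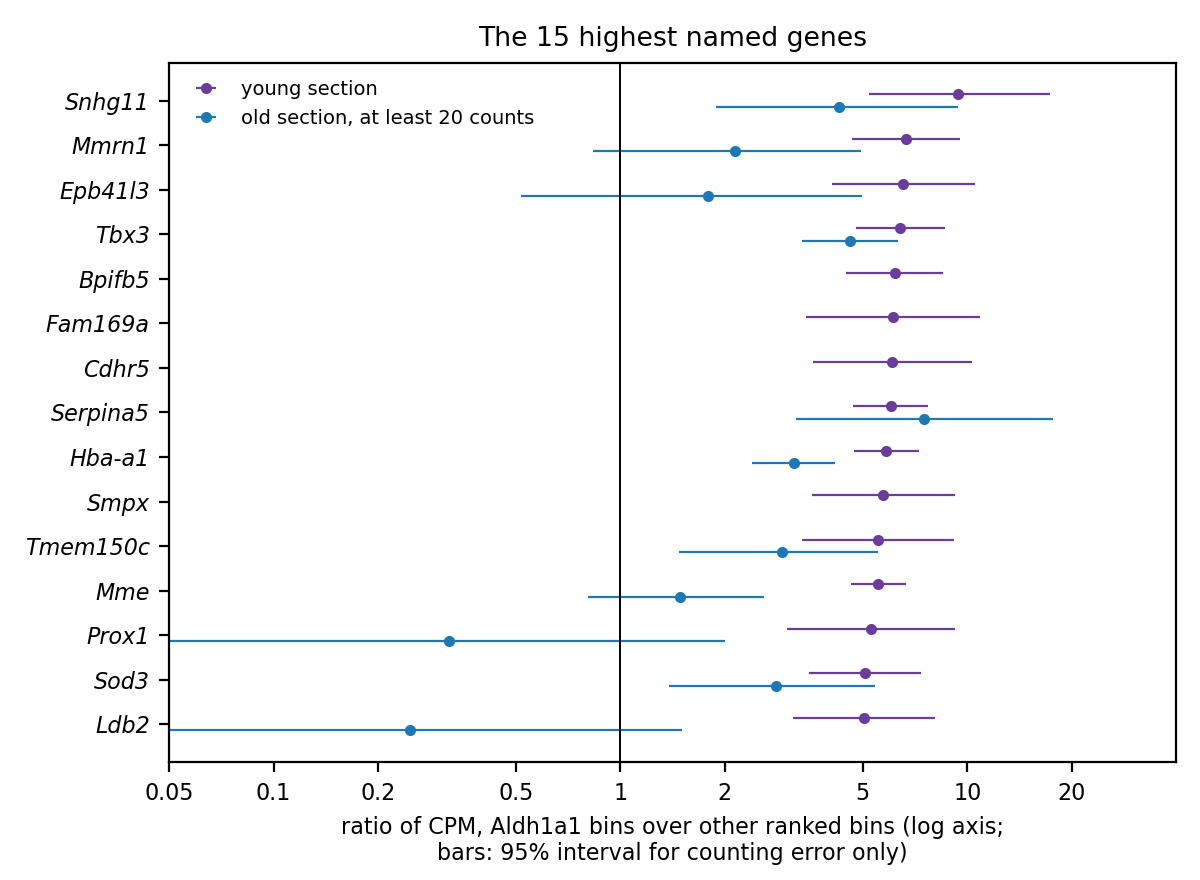
Ratio of CPM, Aldh1a1 bins over the other ranked bins, for the 15 highest named genes in the young section, with the old section added where it had at least 20 counts of a gene. The axis is logarithmic and bars are 95% intervals for counting error only, with those of Prox1 and Ldb2 in the old section running past the left edge. All 15 young ratios lie above 5, and the old ratios of Tbx3, Serpina5, Hba-a1, Snhg11, Tmem150c and Sod3 have intervals above 1.

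The areas most like the Aldh1a1 bins were compared with them in turn. Against the 140 bins set aside for Cyp17a1, 321 of 5090 genes (6.31%) were higher in the Aldh1a1 bins and 539 (10.6%) lower. Steroidogenesis was higher (ratio 1.45, 1.42 to 1.48) and the theca list lower (0.741, 0.617 to 0.889), and all 12 measured granulosa genes were lower (0.262, 0.250 to 0.275). The LH receptor and cAMP list was also lower, at 0.743 (0.697 to 0.792). Against the luteal bins 739 of 5443 genes (13.6%) were higher and 849 (15.6%) lower, with steroidogenesis at 1.87 (1.83 to 1.91), collagen genes at 0.495 (0.473 to 0.518) and macrophage genes at 0.544 (0.490 to 0.602). Against the granulosa bins 919 of 6734 genes (13.6%) were higher and 1657 (24.6%) lower, with steroidogenesis at 2.64 (2.59 to 2.69). Genes of the list that chose the luteal or granulosa bins differ by that choice.

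Blood endothelial, smooth muscle and stromal fibroblast genes were higher as lists against the other ranked bins as a whole, but not against ranked bins outside the luteal, granulosa and oocyte areas. For this other comparison the 3 sets of 20% of ranked bins highest in the luteal, granulosa and oocyte lists were left out, which left 308 bins, called the remaining bins. Against these, 458 of 5829 genes (7.86%) were higher in the Aldh1a1 bins and 924 (15.9%) lower. Of 12 blood endothelial genes 11 were higher against the other ranked bins, with a summed ratio of 1.99 (1.76 to 2.25), and 1 of 11 against the remaining bins, with a ratio of 0.982 (0.852 to 1.13). The capillary gene Plvap stood at 50.9 against 11.5 CPM (4.41, 2.72 to 7.09) and at a ratio of 1.33 against the remaining bins. Smooth muscle genes gave 1.60 (1.51 to 1.70) and 0.758 (0.709 to 0.811), with Myh11, smooth muscle myosin, at 438 against 256 CPM and at a ratio of 0.783 against the remaining bins. With the top 10% of bins in place of the top 20%, smooth muscle genes gave 0.976. Stromal fibroblast genes gave 1.67 (1.56 to 1.79) and 0.904 (0.835 to 0.978), with the proteoglycan Dcn at 448 against 186 CPM. In the quadrant of high x and high y, which held 72 of the Aldh1a1 bins, blood endothelial genes gave 0.956 against the other ranked bins, smooth muscle 0.906 and fibroblast genes 1.04. Steroidogenesis kept a ratio of 2.30 (2.25 to 2.35) against the remaining bins, with 8 of 11 measured genes higher.

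Collagen and matrix genes were not higher as a group. Against the other ranked bins 2 of 24 were higher and 5 lower, with a summed ratio of 0.871. These counts are near the shares over all measured genes, 9.84% higher and 25.9% lower. Against the remaining bins 0 of 23 were higher and 14 lower (0.667, 0.636 to 0.698), beside 7.86% and 15.9% of all measured genes. Col1a2, a chain of type I collagen, stood at 726 against 1164 CPM (0.623, 0.566 to 0.686). In the lymphatic list 4 of 5 measured genes were higher and 1 lower, with a summed ratio of 1.25 (1.07 to 1.45). Within the 4 quadrants that ratio ran from 0.940 to 1.45. Against the remaining bins 3 of 5 were higher and 0 lower, and the ratio was 1.09 (0.904 to 1.31). Mmrn1 stood at 107 against 16.0 CPM, Prox1, the factor that defines lymphatic endothelium, had 27 counts against 30, and the receptors Lyve1 (4.15, 1.81 to 9.23) and Flt4 (3.64, 1.68 to 7.62) had 12 and 13 counts. Pdpn was lower (0.610, 0.484 to 0.759). Against the remaining bins the ratio of Mmrn1 was 2.35 and that of Prox1 1.79.

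**Figure D5:**
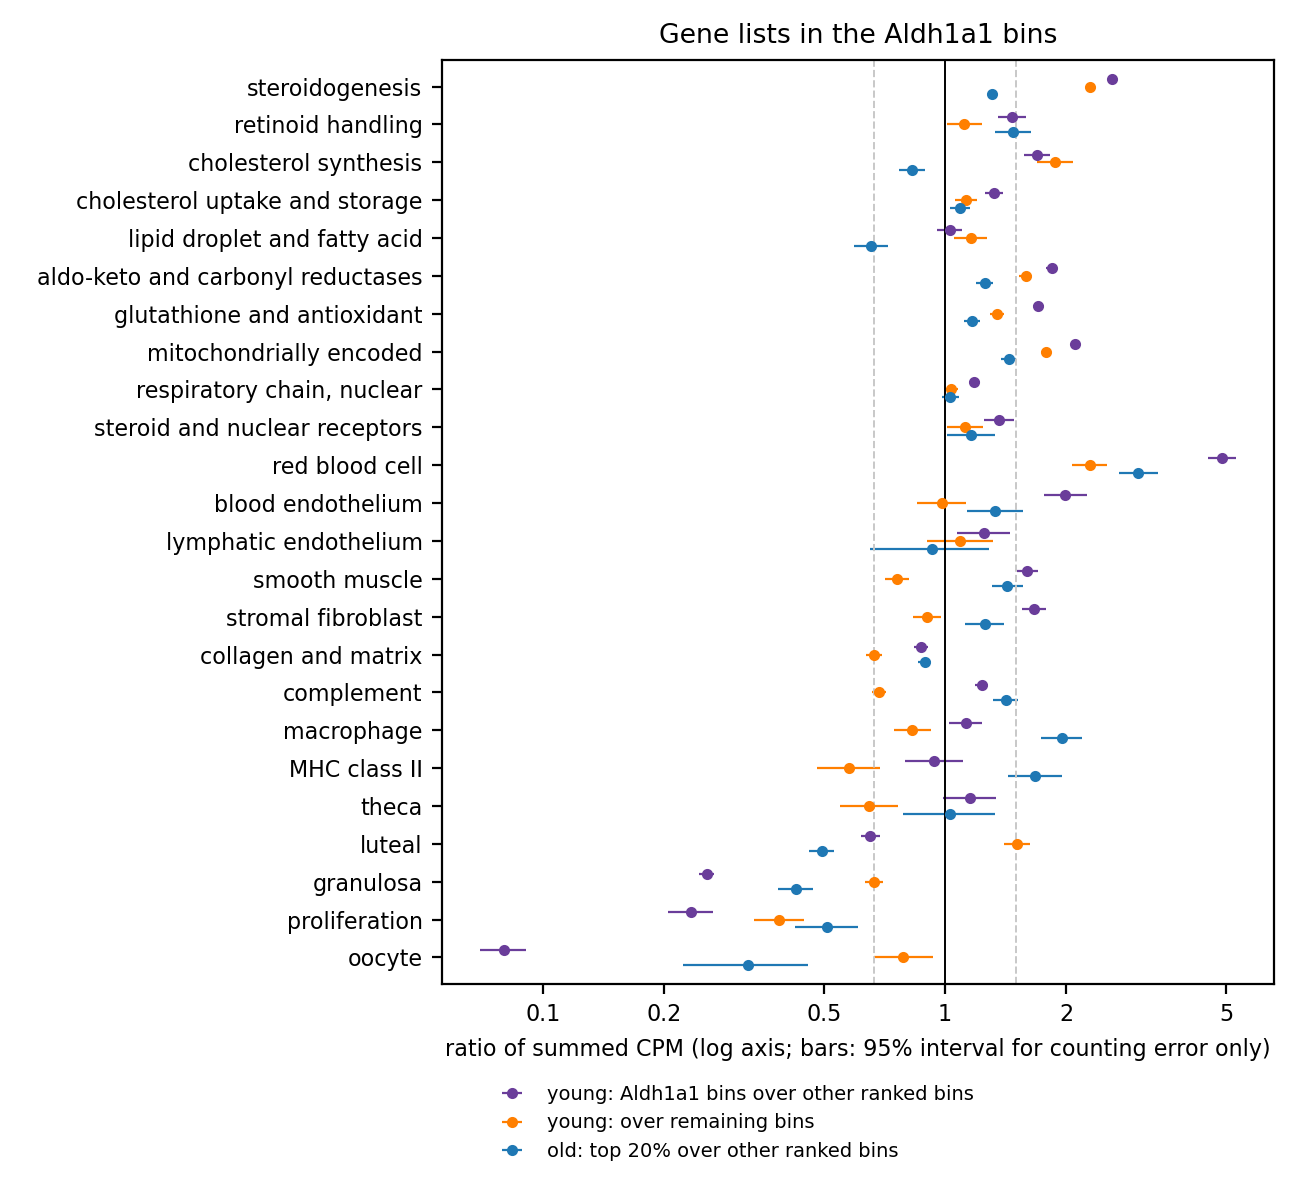
Ratio of summed CPM for 24 gene lists, on a log axis: Aldh1a1 bins over the other ranked bins and over the remaining bins in the young section, and the top 20% over the other ranked bins in the old section. Bars are 95% intervals for counting error only and dashed lines mark 1.5-fold. Steroidogenesis and red blood cell genes lie above 2 in both young comparisons, while blood endothelial, smooth muscle, fibroblast, complement, macrophage, theca and luteal genes change side of 1 between them.

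Haemoglobin transcripts had the highest summed ratio of the lists against the other ranked bins, though not against the remaining bins or in every quadrant. All 5 measured red blood cell genes were higher, with a summed 1686 CPM against 345 CPM (4.89, 4.51 to 5.30) and a ratio of 2.29 (2.07 to 2.53) against the remaining bins. Hbb-bs stood at 1068 against 216 CPM (4.95, 4.46 to 5.48). Hba-a1 and Hba-a2, and Hbb-bs and Hbb-bt, are near copies that may share reads. The counts were uneven, with a red blood cell count in 49.4% of the Aldh1a1 bins and 29.6% of the others, and 68.8% of the 1092 counts in the 20 richest bins. Within quadrants the ratio ran from 1.16 to 10.5, and it was 8.01 over the section without the quadrant of the lowest value. In that quadrant Hba-a2 and Hbb-bt were at 0.825 and 0.811.

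Macrophage and MHC class II genes differed little in sum from the other ranked bins. Of 14 macrophage genes 3 were higher and 0 lower, with a summed ratio of 1.12 (1.03 to 1.23), and of 6 MHC class II genes 0 were higher and 0 lower (0.941, 0.797 to 1.11). The mannose receptor Mrc1 stood at 71.0 against 42.2 CPM (1.68, 1.18 to 2.35), and Lyz2, a lysozyme of myeloid cells, at 216 against 224 CPM (0.963, 0.800 to 1.15). Against the remaining bins 0 of 14 macrophage genes were higher and 1 lower, at 0.830 (0.745 to 0.924), and MHC class II gave 0.576 (0.479 to 0.690). Of 8 measured complement genes 5 were higher and 1 lower (1.23, 1.19 to 1.28). Against the remaining bins 1 of 8 was higher and 2 lower, and the ratio was 0.685 (0.658 to 0.713). C2 stood at 108 against 22.6 CPM (4.79, 3.44 to 6.64). Of 15 lymphocyte genes 1, the antibody chain gene Ighm, reached 20 counts over both classes, and the list summed to 7.72 CPM against 20.5 CPM (0.377, 0.119 to 0.918).

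Of 12 nuclear receptors measured, 5 were higher and 3 lower, against 9.84% and 25.9% of all measured genes. The summed ratio was 1.36 (1.25 to 1.49). Against the remaining bins 1 of 8 was higher and 1 lower, beside 7.86% and 15.9% of all measured genes. The summed ratio there was 1.12 (1.01 to 1.25). Esr1, oestrogen receptor alpha, stood at 107 against 44.1 CPM (2.42, 1.80 to 3.22), whereas Esr2, the beta form of granulosa cells, stood at 15.4 against 81.6 CPM (0.189, 0.0898 to 0.353). Nr2f2, an orphan receptor of stromal cells, stood at 281 against 149.8 CPM (1.88, 1.58 to 2.22).

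Follicle genes were low against the other ranked bins as a whole. All 13 granulosa genes, all 23 oocyte genes and all 15 proliferation genes measured were at least 1.5-fold lower, with summed ratios of 0.255 (0.244 to 0.267), 0.0797 (0.0696 to 0.0909) and 0.233 (0.204 to 0.264). Inhba, the activin and inhibin subunit of growing follicles, stood at 125 against 2059 CPM (0.0607, 0.0482 to 0.0756), and the junction protein Gja1 at 1680 against 3994 CPM (0.421, 0.395 to 0.447). In 1 quadrant both stood near the others, at ratios of 1.05 and 1.15. Mki67, a marker of dividing cells, had 13 counts against 825. The 10 lowest named genes all had 0 counts in the Aldh1a1 bins, led by the zona pellucida gene Zp1 with 200 counts in the others, at least 11.3-fold lower against a floor of 3 counts over the group. Kif17, Oas1e, Slc38a5, Mastl, Evx1, Mcm10, Fbxw18, Obox2 and Tubb2b had 106 to 198 counts there. In all 17 eligible genes had 0 counts, and the 10 with the most counts in the others were taken. Against the remaining bins, from which follicle-rich bins are left out, granulosa genes gave 0.666 and oocyte genes 0.788. There 8 of 10 granulosa genes and 1 of 10 oocyte genes were lower. Against the luteal bins granulosa genes gave 1.00 (0.946 to 1.07) and oocyte genes 1.11 (0.921 to 1.34). Low sums of these 2 lists were thus shared with the luteal bins, but not the level of each granulosa gene. Against the luteal bins 6 of 11 granulosa genes were lower and 1 higher, at a median ratio of 0.470. Of 9 oocyte genes 0 were lower and 1 higher. Among all measured genes 15.6% were lower and 13.6% higher there.

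Within the Aldh1a1 bins, the share of the 3 genes ran with steroidogenesis and against stroma. Between the 78 bins with the highest share and the 77 with the lowest, steroidogenesis stood at 43944 and 31364 CPM (ratio 1.40, 1.36 to 1.45). Cyp11a1 had a ratio of 1.57 (1.47 to 1.67), Mme 2.35 (1.67 to 3.35) and mitochondrially encoded genes 1.34 (1.28 to 1.40). Smooth muscle stood at 1310 and 2815 CPM (0.465, 0.403 to 0.537), fibroblast genes at 0.658 (0.563 to 0.768), complement at 0.519 (0.477 to 0.565) and MHC class II at 0.367 (0.234 to 0.562). A bin's share of the 3 genes is a part of its total, so a higher share leaves less for other genes. The median share was 3.03% in the 78 bins and 1.91% in the 77, and its part in these ratios was not tested. The 118 bins that touched a Cyp17a1 bin and the 115 that did not had like levels of steroidogenesis (38045 and 36677 CPM), and red blood cell genes stood at 1133 and 2363 CPM (0.480, 0.423 to 0.543). The 18 bins within 3 bin widths of the outer edge held 83.1 CPM of red blood cell genes, against 1814 CPM in the 215 farther in, and Mme stood at 83.1 against 379 CPM.

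The old section held few such bins. Of its 884 kept bins 2 reached the young cutoff of 1.70%, and none held 2 Cyp17a1 counts. Its top 20%, 177 bins, began at a share of 0.361%, and Aldh1a1 stood there at 2472 CPM against 422 CPM in its other bins. Mgarp stood at 3091 against 1069 CPM and Adh1 at 375 against 43.8 CPM. Bins of 70 units spanned 5.58 bead spacings of the young array and 7.08 of the old one. With bins of 140 units 0 old bins reached the matching cutoff.

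Beside each other, part of the young pattern was present in the old top 20%. Of 7567 genes with at least 50 counts in both sections, 699 were higher in the young and 691 in the old bins, and 223 were higher in both, which is 31.9% of the first and 32.3% of the second list. Over all these genes 9.13% were higher in the old section, and over its 7749 measured genes 9.21% were higher and 18.2% lower. Tbx3 stood at 230 against 49.9 CPM in the old section (4.61, 3.35 to 6.31) and Serpina5 at 45.3 against 6.05 CPM (7.49, 3.22 to 17.7). Aldh1a2 stood at 437 against 171 CPM (2.55, 2.07 to 3.12), C2 at 210 against 60.0 CPM (3.51, 2.55 to 4.79) and Esr1 at 97.1 against 35.3 CPM (2.75, 1.73 to 4.28). Red blood cell genes gave 3.03 (2.71 to 3.39).

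Steroidogenesis differed less between the classes there, with 4 of 12 genes at least 1.5-fold higher and 2 lower. The summed ratio was 1.31 (1.28 to 1.33) against 2.60 in the young section. The list stood at 37430 CPM in the young Aldh1a1 bins and 32701 CPM in the old chosen bins. In the other ranked bins it stood at 14380 CPM (young) and 25042 CPM (old). Between the sections the comparison bins thus differed more in level than the chosen bins. In the old section Hsd3b1 stood at 17038 against 9936 CPM (1.71, 1.66 to 1.77). Cyp11a1 stood at 9996 against 8748 CPM (1.14, 1.10 to 1.19) and Star at 1142 against 1365 CPM (0.837, 0.747 to 0.935). Lhcgr was at 207 against 347 CPM (0.597, 0.455 to 0.773), and Prlr at 728 against 797 CPM. Macrophage genes gave 1.95 (1.73 to 2.19) with 9 of 13 higher, and MHC class II 1.68 (1.44 to 1.95) with 4 of 4 higher. Lyz2 stood at 278 against 142 CPM (1.97, 1.53 to 2.51) and Cd74 at 227 against 149 CPM (1.52, 1.16 to 1.98). These old bins were cut at a much lower share than the young ones, so the comparisons are of unlike choices.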

How the data were processed

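Gene counts per bead and bead positions of 1 young and 1 old section were taken as deposited by the authors, as whole-number counts with no normalization. The submitters' processing notes name build mm10. The aligner, the counter, the unit of the positions and whether a count is a molecule or a read: not given in the sources used here. Counts were summed over bins and divided by the bins' total (CPM). Ratios have exact binomial 95% intervals (scipy 1.17.1, numpy 2.4.6, Python 3.11.15), which cover counting error only, since bins of 1 section are not replicates. A gene was measured with at least 50 counts over both classes (20 for a gene of a list), and higher or lower from 1.5-fold. Named genes were the 15 highest and 10 lowest with at least 20 CPM in 1 class, excluding mitochondrial, ribosomal protein and predicted genes, and from each list at most 3 from either end plus the 2 most abundant; steroidogenesis, retinoid and theca genes could all be named. The members and the 32 lists were chosen with earlier results of these data known. The code was tested on simulated data. Alternatives changed the bins, ranking, comparison, scaling and thresholds. Values of some single genes are not reported here.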

Additional observations from a re-analysis of the deposited data

Results flagged for a closer look

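In 3 lists the ratio of the top 20% over the other ranked bins lay on opposite sides of 1 in the sections, with both counting intervals clear of 1. Further lists lay on opposite sides of 1 with at least 1 interval that held 1. With 1 section per age the difference was not tested. Cholesterol synthesis gave 1.69 (young) and 0.828 (old), with 4 of 16 genes higher and 4 lower in the young and 1 of 16 higher and 7 lower in the old. Over all measured genes 9.84% were higher and 25.9% lower in the young, and 9.21% and 18.2% in the old. The insulin-like growth factor list gave 0.873 and 1.21, with Igfbp5, a binding protein, at a young ratio of 0.249. The adrenal cortex list gave 1.49 and 0.804. The young value rested on 1 measured gene, Mrap, an accessory protein of the ACTH receptor, while in the old section 2 of 3 measured genes were higher, with a median ratio of 2.04 on the other side of 1 from the sum.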

How the results depend on the processing

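The count of higher genes was 971 and of lower genes 2555. It moved by over 1.5 times, to 458 and 924 against the remaining bins, 291 and 598 with each bin thinned to 500 counts, 367 and 1007 with at least 200 counts per gene, and 351 and 1457 at 2-fold. Under the other alternatives run it lay between 778 and 1444 for higher and between 1874 and 3500 for lower genes. Counted over touching pairs, the share of ranked neighbours of Aldh1a1 bins that were Aldh1a1 bins was 63.8%. It was 51.7% with bins of 140 units and 43.1% for the top 10%. The number of old bins past the young cutoff was 2, and 0 with bins of 140 units. The 20% rule applied to the old section gives 177 bins, a number fixed by that rule and not a count past the young cutoff. Steroidogenesis ran from 2.30 to 2.75. Against the remaining bins these changed side: the luteal list (1.51), fibroblast (0.904), smooth muscle (0.758) and blood endothelial lists (0.982), the complement (0.685), macrophage (0.830) and theca lists (0.648), which were within 1.5-fold at first, Hsd17b7 (1.19), Ogn (0.765) and Myh11 (0.783). Smooth muscle did so for the top 10% (0.976), Scarb1 with bins of 140 units (0.959), Ptch1 when thinned (1.11) and Insl3 when ranked by Mgarp and Adh1 (1.32). Ighm gave 1.10 with bins of 42 units, 1.26 for the top 10% and 1.16 with beads of at least 200 counts. The causes were not tested. Depth limits genes near 50 counts most, and the Aldh1a1 bins had fewer counts per bin than the others. No paired analysis was possible because the 2 sections share no replicate number and no fit across samples was made.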
